A study of Mus musculus with 112 samples.

Results

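This report describes how the cerebral cortex of male 129S1/SvImJ mice, an inbred strain, differed in gene expression between a calorie restricted (CR) diet and a control diet. Its members were the 16 arrays labelled with this strain, 8 CR and 8 control, out of 112 arrays of 7 strains. The labels call the 8 arrays of a group biological replicates. Mice arrived at 6 weeks of age, lived 1 to a cage and ate 84 kcal per week of an AIN93M type diet until the diets began at 8 weeks, and tissue was taken at 22 weeks of age after an overnight fast. By the study's methods the food of CR mice was lowered further partway in 129S1/SvImJ and in C57BL6/J, while the other 5 strains (B6C3F1/J, DBA/2J, CBA/J, C3H/HeJ and Balbc/J, the last with more food in both diets) had no such step. The labels name no transgene or induced mutation. RNA was measured on Affymetrix Mouse Gene 1.0 ST arrays, and all values are RMA signals on the log2 scale, where a difference of 0.30 is close to 23% on the linear scale (the gene *Dbp*, described later, differed by 0.30, or 23.5%).

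Calorie restriction lowers energy intake without malnutrition and extends lifespan in many rodent strains. A neuron makes large amounts of membrane and secreted protein, which fold in the endoplasmic reticulum (ER) with the help of chaperones and enzymes that form disulfide bonds; many of these genes share promoter sequences read by the transcription factors XBP1 and ATF6. The circadian clock is a feedback loop in which BMAL1 (gene *Arntl*) and CLOCK activate the *Per* and *Cry* repressors, and it also drives output genes such as *Dbp* and *Tef*. Feeding time and energy state are known to act on clocks in many tissues.

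The arrays of this strain were compared by their relative log expression and by markers of tissue. Median signal over genes ran between 7.51 and 7.54 in the 16 arrays, but RMA gives arrays a common distribution, so this says nothing of quality. The interquartile range of relative log expression, a measure of how far an array departs from the typical array of the strain, was 0.137 to 0.186 in CR mice and 0.121 to 0.201 in control mice. Markers of excitatory cortical neurons were high, with *Slc17a7*, the vesicular glutamate transporter of these cells, at a median of 12.08 in CR mice and 12.25 in control mice. Genes of tissue that borders the cortex varied widely within both diets. The striatal dopamine receptor gene *Drd2* spanned 8.07 to 11.19 in CR mice and 7.84 to 11.44 in control mice, and *Ttr*, the transport protein of the choroid plexus, spanned 9.18 to 13.18 in CR mice and 9.35 to 12.76 in control mice. The cerebellar marker *Gabra6* stayed low, with a highest value of 5.59 in CR mice and 5.63 in control mice.

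No gene passed the test in this strain. Of 19938 genes, 0 (0%) were called at an adjusted p under 0.05 by limma on the 16 arrays, and the smallest adjusted p was 0.277. At an unadjusted p under 0.05 there were 1313 genes (6.59%), of which 784 were higher in CR mice (3.93%) and 529 lower (2.65%). At an unadjusted p under 0.01, the threshold in the study's methods, there were 297 genes (1.49%), with 218 higher (1.09%) and 79 lower (0.396%), a split that was 218 to 127 after quantile normalization of the 16 arrays alone. The methods' t-test gave 349 genes at that threshold on the linear signal and 353 on the log2 signal, and 0 of either after Benjamini-Hochberg adjustment. A fit of all 112 arrays called 1 gene, *Pnrc2* (0.00502%). The values that follow are therefore measurements with their errors and not called changes. Differences were small: the median standard error was 0.0619, the 95% interval lay within a change of 20% for 84.2% of genes, and 6 genes differed by over 0.5.

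Among the higher genes, ER chaperones and clock genes took 4 of the 8 places of smallest p. *Dbp*, a transcription factor under direct control of the clock, had values of 9.86, 10.02 and 10.24 in CR mice (lowest, median and highest) and 9.56, 9.75 and 9.85 in control mice. Every CR mouse lay above every control mouse, and the difference was 0.30 ± 0.05 (SE, adjusted p 0.277). *Hspa5*, which encodes BiP, the main Hsp70 chaperone of the ER, had 10.23, 10.45 and 10.63 in CR mice and 9.98, 10.18 and 10.28 in control mice. The difference was 0.30 ± 0.06 (adjusted p 0.277), and the lowest CR mouse lay within the control range. *Pdia4*, an ER protein disulfide isomerase, had 9.38, 9.48 and 9.73 in CR mice and 9.08, 9.28 and 9.38 in control mice, again with no overlap and a difference of 0.26 ± 0.05. *Per3*, a clock repressor, had 8.90, 9.05 and 9.18 in CR mice and 8.62, 8.82 and 8.94 in control mice, with a difference of 0.24 ± 0.05.

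The other 4 were not members of either list. *Pnrc2*, an adaptor that binds nuclear receptors and the mRNA decapping machinery, had 9.79, 9.93 and 10.09 in CR mice and 9.40, 9.62 and 9.81 in control mice. Its difference was 0.32 ± 0.06 (25.2%), with an adjusted p of 0.277 on the 16 arrays and 0.0299 in the 112-array fit, which was the only call of that fit. *Rwdd2a* differed by 0.34 ± 0.06, with 8.62 to 9.01 in CR mice and 8.34 to 8.77 in control mice, and its adjusted p was 0.277, or 0.0256 with control replicate 5, the highest control mouse, left out. *Commd6* differed by 0.24 ± 0.05 (9.58 to 9.84 in CR mice, 9.34 to 9.59 in control mice). *Sike1*, named as a suppressor of the kinase IKK epsilon, was 9.40 to 9.59 in CR mice and 9.03 to 9.37 in control mice, with no overlap and a difference of 0.25 ± 0.05. Across all genes, 7 (0.0351%) had every CR mouse above every control mouse: *Dbp*, *Pdia4*, *Sike1*, *Dnajb4*, *Imp4*, *Slc36a4* and *Tmem33*. No gene had every CR mouse below every control mouse.

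The 6 genes that differed by over 0.5, chosen after their values were seen, varied widely among CR mice. *Resp18*, a gene of neuroendocrine cells, was 8.54 to 9.47 in CR mice and 8.17 to 8.64 in control mice (0.50 ± 0.12, adjusted p 0.334). *Agt*, angiotensinogen, made by astrocytes in the brain, was 7.79 to 9.95 in CR mice and 7.59 to 8.60 in control mice (0.72 ± 0.28, adjusted p 0.712). *Pmch*, which encodes melanin-concentrating hormone, a neuropeptide of the hypothalamus, was 4.82 to 8.01 in CR mice and 4.86 to 5.57 in control mice (0.67 ± 0.37, adjusted p 0.790). The control ranges of these 3 genes were the narrower ones, and some CR mice lay above them while others did not. *Gpx3* (0.63 ± 0.30), *AW551984* (0.62 ± 0.26) and *Calb2* (0.53 ± 0.32) completed the set, with adjusted p of 0.747 (*Gpx3*), 0.740 (*AW551984*) and 0.813 (*Calb2*). *Calb2*, the highest of the thalamic markers described later, was 7.74 to 9.52 in CR mice and 7.12 to 9.87 in control mice.

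The 8 lower genes of smallest p were of mixed kinds, and 5 of them lay low on the array. *Id2*, an inhibitor of basic helix-loop-helix transcription factors, had 11.08, 11.24 and 11.42 in CR mice and 11.29, 11.50 and 11.65 in control mice, a difference of -0.23 ± 0.06 (adjusted p 0.387). *Gpr26*, an orphan receptor of the brain, was 8.89 to 9.18 in CR mice and 9.10 to 9.32 in control mice, a difference of -0.19 ± 0.05. *Chsy3*, a chondroitin sulfate synthase, differed by -0.22 ± 0.06. The ranges of both diets overlapped for all 3 of these genes. *Rp1* (-0.26 ± 0.06), *Prss58* (-0.30 ± 0.07), *Zfp985* (-0.28 ± 0.07), *Defa39* (-0.28 ± 0.07) and the olfactory receptor gene *Olfr804* (-0.42 ± 0.11) had means of 4.80, 4.86, 4.31, 5.94 and 2.51 in CR mice and 5.06, 5.16, 4.59, 6.22 and 2.93 in control mice, all below the array medians. *Zfp985* and *Defa39* belong to families of near-identical genes, so their signal can hold that of other members.

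**Figure D1:**
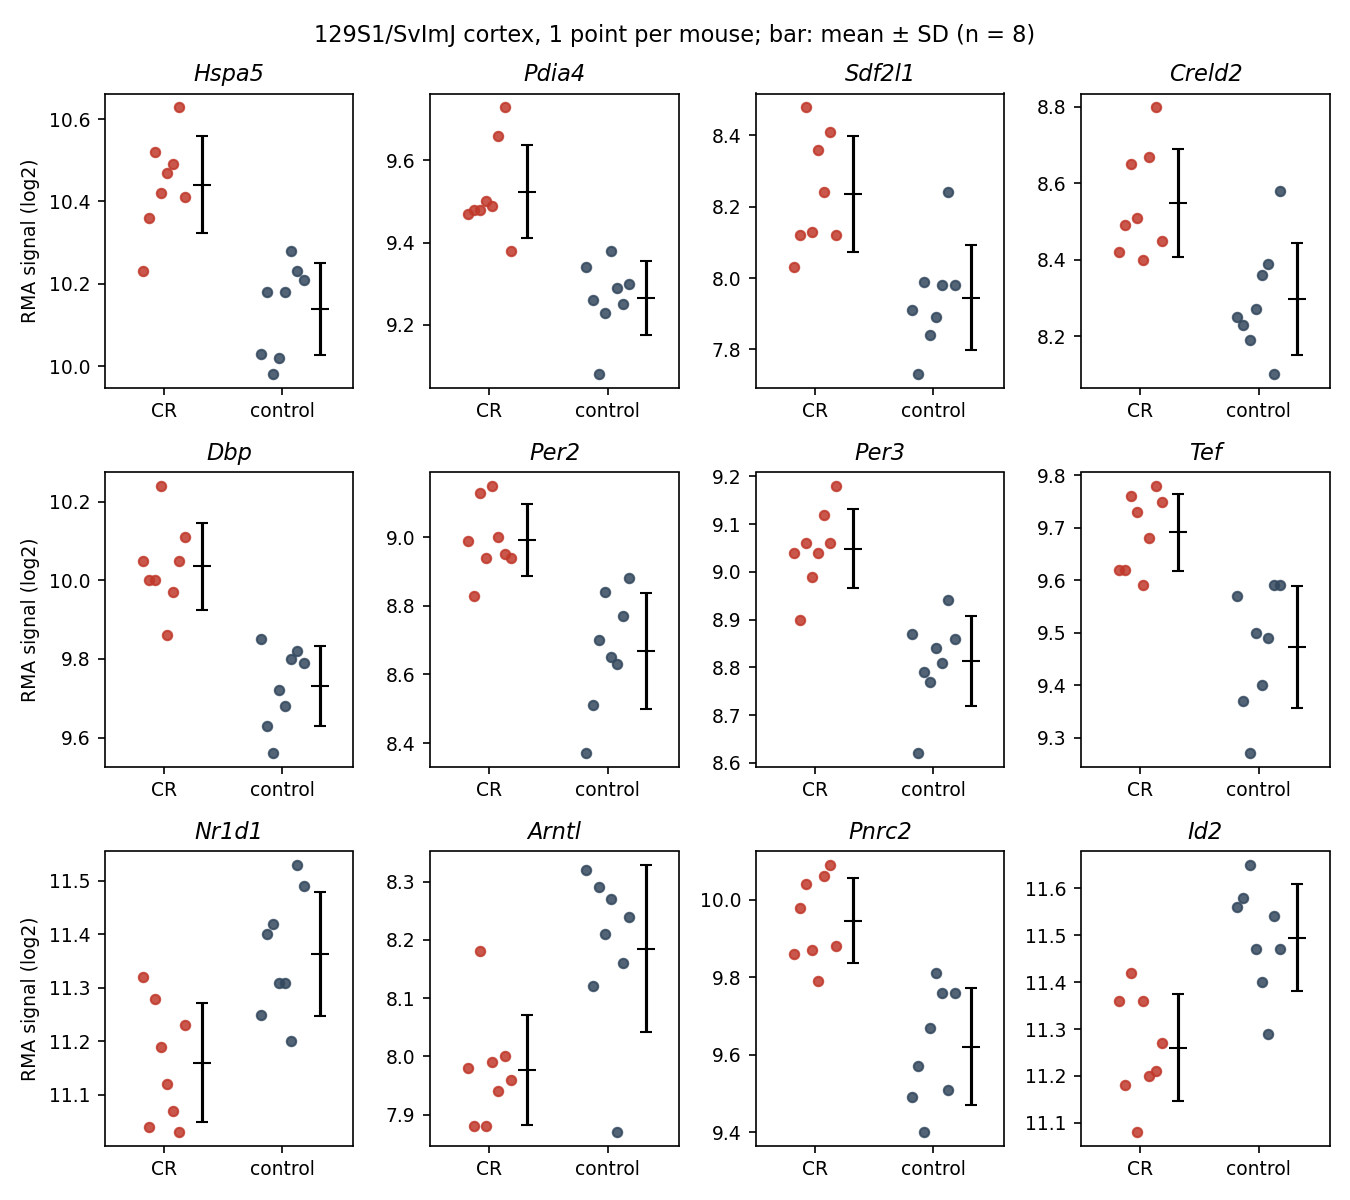
RMA signal (log2, vertical axis; scales differ) of 12 genes in 129S1/SvImJ cortex, 1 point per mouse, CR at left and control at right of each panel, with bars for the mean ± SD of 8 mice. Dbp and Pdia4 show no overlap between diets; Nr1d1, Arntl and Id2 lie lower in CR mice and the other 9 genes higher.

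The ER chaperones were mostly higher in CR mice. Of the 19 measured, 18 differed in the direction of higher signal in CR mice (48.4% of all genes did), 13 had an unadjusted p under 0.05 in that direction (all genes, 3.93%) and 9 under 0.01 (all genes, 1.09%), 0 were called after adjustment, and 0 were lower at p under 0.05. The median difference was 0.12, against -0.0026 over all genes. Averaged over the 19 genes, the signal of every CR mouse lay above that of every control mouse: relative to the control mean the 8 CR mice ran from 0.08 to 0.25, with a median of 0.12, and the 8 control mice from -0.08 to 0.07. The members and this list were chosen with earlier results of these data known, so the count is a description. Bulk RNA cannot tell more transcript per cell from more cells that hold it.

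After *Hspa5* and *Pdia4*, the members of smallest p were 4 soluble proteins of the ER lumen. *Sdf2l1*, a partner of BiP in the ER, had 8.03, 8.19 and 8.48 in CR mice and 7.73, 7.95 and 8.24 in control mice (0.29 ± 0.07, adjusted p 0.399). *Manf*, an ER resident protein that can be secreted, had 7.83, 8.01 and 8.20 in CR mice and 7.73, 7.79 and 7.96 in control mice (0.20 ± 0.05, adjusted p 0.402). *Creld2*, a protein known for its induction under ER stress, had 8.40, 8.50 and 8.80 in CR mice and 8.10, 8.26 and 8.58 in control mice (0.25 ± 0.07, adjusted p 0.488). For each of these 3 the CR median exceeded the control median, and ranges overlapped. *Dnajc3*, a co-chaperone of BiP, was 8.47 to 8.70 in CR mice and 8.34 to 8.67 in control mice, a difference of 0.18 ± 0.05. Of the remaining members, the disulfide isomerase *Pdia6* (0.17 ± 0.05), the co-chaperone *Dnajb11* (0.19 ± 0.06), the lectin chaperones *Canx* (0.11 ± 0.04) and *Calr* (0.10 ± 0.04), *Pdia3* (0.15 ± 0.06), *Ppib* (0.10 ± 0.04) and *Ero1b* (0.12 ± 0.05) were at an unadjusted p under 0.05. The other 6 were not: *Cnpy2*, *Ero1a*, *P4hb*, *Hsp90b1*, *Fkbp2* and *Hyou1* lay between -0.02 (*Hyou1*) and 0.08 (*Cnpy2*).

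A list of genes of the ER stress signal, with some of its targets, did not share this direction. Of 20 sensors, transcription factors, targets and feedback genes of the unfolded protein and integrated stress responses, 10 were above 0 and 10 below, with a median of -0.0006. *Xbp1*, the transcription factor whose mRNA is spliced by IRE1, was 10.27 to 10.76 in CR mice and 10.17 to 10.39 in control mice (0.17 ± 0.06, adjusted p 0.696). *Derl3*, part of the pathway that removes misfolded protein from the ER, differed by 0.10 ± 0.05, and *Cebpb* by -0.15 ± 0.06. These were the 3 members at an unadjusted p under 0.05. The arrays give 1 signal per gene and do not separate spliced from unspliced *Xbp1*.

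**Figure D2:**
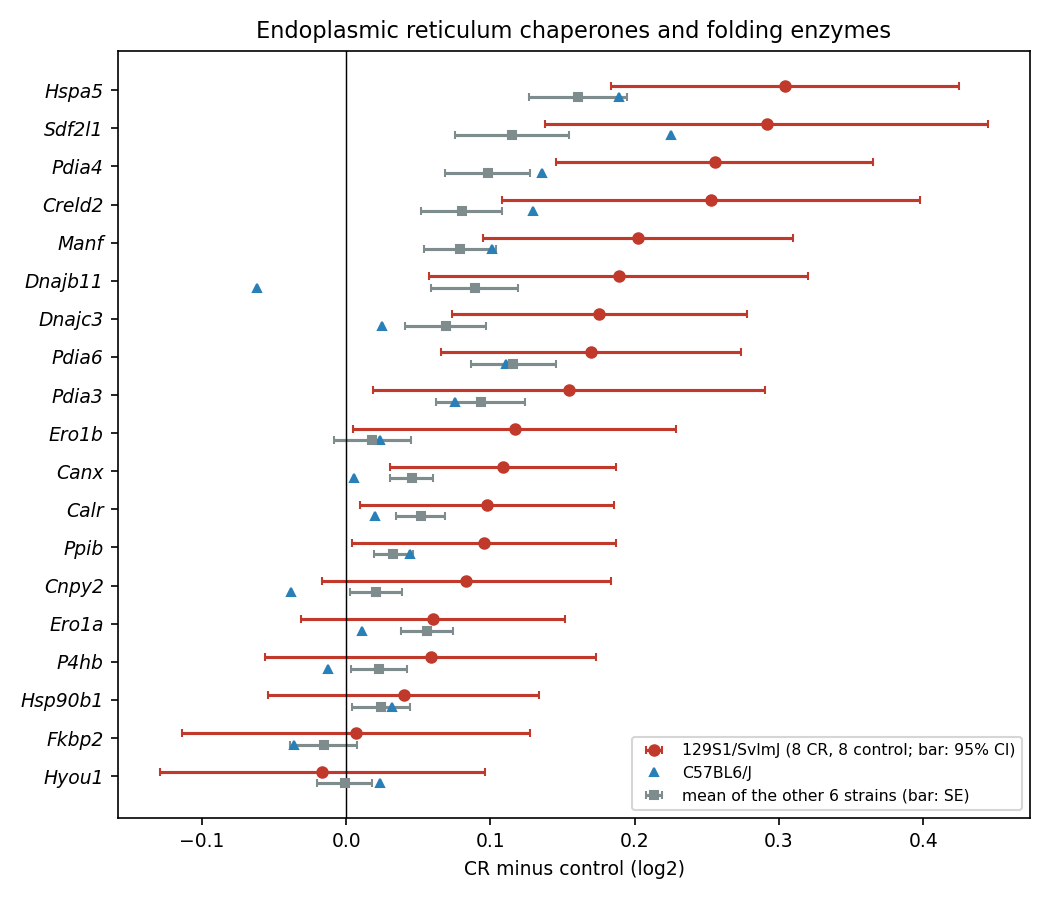
CR minus control difference (log2, horizontal axis) of the 19 ER chaperone genes: circles for 129S1/SvImJ with the 95% confidence interval, squares for the mean of the other 6 strains with its SE, triangles for C57BL6/J. In 129S1/SvImJ 18 of the 19 circles lie above 0, and Hspa5 is the highest.

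Because ER chaperone genes are known to share the ER stress response element (ERSE, here CCAAT and CCACG with 9 bases of any kind between them), RefSeq promoters (GRCm38.p6, 250 bases before to 50 after the start) were searched for it on both strands. The promoters of 17 of the 19 list members were in the table, and 8 held the motif: *Calr*, *Canx*, *Creld2*, *Dnajc3*, *Ero1b*, *Hsp90b1*, *Hspa5* and *Pdia6*. That is 47.1% of members, against 0.137% of all 27025 genes with a promoter. The promoters of *Hspa5* (chr2:34771840-34772139, plus strand), *Creld2* (chr15:88819396-88819695, plus strand) and *Dnajc3* (chr14:118937682-118937981, plus strand) are shown because these are the motif holders of smallest p in the list. Capitals mark the motif, which reads on the opposite strand in *Creld2*.
Hspa5: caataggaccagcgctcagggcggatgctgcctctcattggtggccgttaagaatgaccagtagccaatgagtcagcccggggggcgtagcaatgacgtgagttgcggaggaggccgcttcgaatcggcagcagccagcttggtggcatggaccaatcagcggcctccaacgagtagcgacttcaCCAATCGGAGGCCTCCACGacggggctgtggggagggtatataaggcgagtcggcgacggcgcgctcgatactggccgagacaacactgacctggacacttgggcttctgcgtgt
Creld2: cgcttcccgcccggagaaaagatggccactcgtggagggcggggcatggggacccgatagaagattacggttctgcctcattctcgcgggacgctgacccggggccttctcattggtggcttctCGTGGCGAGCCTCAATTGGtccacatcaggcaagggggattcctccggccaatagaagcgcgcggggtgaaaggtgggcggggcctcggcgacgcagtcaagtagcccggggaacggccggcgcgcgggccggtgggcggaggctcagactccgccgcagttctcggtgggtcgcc
Dnajc3: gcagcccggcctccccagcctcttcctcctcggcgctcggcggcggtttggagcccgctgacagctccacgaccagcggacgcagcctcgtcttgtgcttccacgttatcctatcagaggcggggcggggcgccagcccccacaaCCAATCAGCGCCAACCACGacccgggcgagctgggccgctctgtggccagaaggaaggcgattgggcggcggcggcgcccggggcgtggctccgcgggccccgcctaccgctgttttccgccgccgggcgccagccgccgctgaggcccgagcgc

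The 8 list members that hold the motif had a median difference of 0.14, with 7 of them at an unadjusted p under 0.05. The 9 members with a promoter and no exact match had a median of 0.10, with 5 at that p. Outside the list, 13 measured genes held the motif, with a median of -0.02 and 1 of them higher at an unadjusted p under 0.05 (*Derl3*, 0.10 ± 0.05). All measured genes with a promoter had a median of -0.0014. A match is a stretch of letters and not a measured binding site.

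Clock genes differed in both directions. Of 18 measured, 8 were higher in CR mice at an unadjusted p under 0.05 (all genes, 3.93%) and 2 were lower (all genes, 2.65%), with 6 and 2 at p under 0.01, and 0 were called after adjustment. The median was 0.08. Beside *Dbp* and *Per3*, the repressor *Per2* had 8.83, 8.97 and 9.15 in CR mice and 8.37, 8.68 and 8.88 in control mice (0.32 ± 0.07, adjusted p 0.277). The lowest CR mouse was below the highest control mouse. *Tef*, a relative of *Dbp*, had 9.59, 9.71 and 9.78 in CR mice and 9.27, 9.49 and 9.59 in control mice, a difference of 0.22 ± 0.05 (adjusted p 0.334), and its ranges met at 9.59. The transcriptional repressors *Bhlhe41* (0.28 ± 0.07, 8.37 to 8.76 in CR mice and 8.16 to 8.49 in control mice) and *Ciart* (0.30 ± 0.08, 9.42 to 9.83 in CR mice and 8.97 to 9.52 in control mice) were also higher.

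The 2 lower clock genes, chosen after their values were seen, were the activator *Arntl* and *Nr1d1*, which encodes REV-ERB alpha, a repressor of *Arntl*. *Nr1d1* had 11.03, 11.16 and 11.32 in CR mice and 11.20, 11.36 and 11.53 in control mice (-0.20 ± 0.06, adjusted p 0.506). *Arntl* had 7.88, 7.97 and 8.18 in CR mice and 7.87, 8.23 and 8.32 in control mice (-0.21 ± 0.06, adjusted p 0.533), and 1 control mouse lay as low as the lowest CR mice. The repressors *Cry1* and *Cry2* differed by 0.15 ± 0.06 and 0.10 ± 0.04, while *Per1* (0.02 ± 0.08), *Clock* (-0.03 ± 0.05) and *Hlf* (-0.01 ± 0.07) were near 0. The time of day at which tissue was taken is not given in the sources used here, and its part in these values was not tested.

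**Figure D3:**
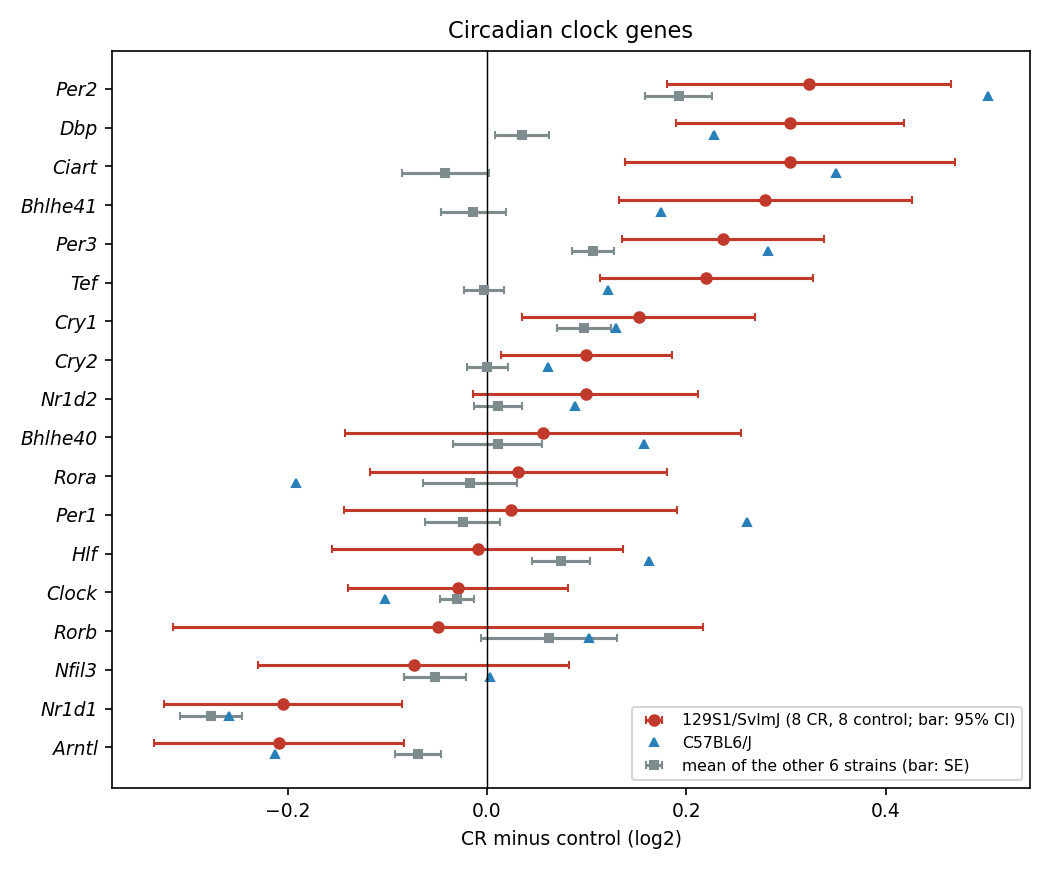
CR minus control difference (log2, horizontal axis) of the 18 clock genes: circles for 129S1/SvImJ with the 95% confidence interval, squares for the mean of the other 6 strains with its SE, triangles for C57BL6/J. In 129S1/SvImJ the highest values are those of Per2, Dbp and Ciart and the lowest those of Nr1d1 and Arntl; for Dbp, Ciart, Bhlhe41 and Tef the C57BL6/J value lies closer to the circle than the mean of the other strains does.

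The canonical E-box bound by CLOCK and BMAL1, CACGTG, is a common motif. It was found in the promoter windows of 5 of the 16 clock genes with a promoter (31.2%): *Bhlhe41*, *Ciart*, *Cry1*, *Per1* and *Tef*. Of all genes with a promoter 8.09% held it. The windows of *Tef* (chr15:81802423-81802722, plus strand) and *Ciart* (chr3:95882179-95882478, minus strand) are shown as examples with 1 and 3 copies, in capitals; both genes were higher at an unadjusted p under 0.01, as was *Bhlhe41*, which is not shown.
Tef: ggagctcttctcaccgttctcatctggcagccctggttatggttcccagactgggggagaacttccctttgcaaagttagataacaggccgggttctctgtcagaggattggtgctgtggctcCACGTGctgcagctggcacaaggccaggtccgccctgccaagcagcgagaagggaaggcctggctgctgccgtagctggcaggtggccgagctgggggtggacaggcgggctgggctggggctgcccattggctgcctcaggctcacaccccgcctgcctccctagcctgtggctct
Ciart: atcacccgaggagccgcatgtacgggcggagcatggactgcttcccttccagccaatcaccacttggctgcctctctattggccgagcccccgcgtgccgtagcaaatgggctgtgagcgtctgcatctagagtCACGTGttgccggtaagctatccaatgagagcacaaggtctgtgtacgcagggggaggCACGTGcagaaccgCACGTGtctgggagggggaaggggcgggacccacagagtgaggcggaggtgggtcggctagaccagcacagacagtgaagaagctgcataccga

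The 5 clock genes that hold an E-box had a median difference of 0.22, and the 11 without one -0.0094. *Dbp* and *Per3*, both higher in CR mice, had no CACGTG in their windows, and *Per1*, which has one, differed by 0.02 ± 0.08. Among 1478 other measured genes with the motif the median was 0.0044. The sterol motif TCACNCCAC was present in 1 of 19 cholesterol genes (5.26%, *Hmgcs1*; all genes 1.44%) and the heat shock element (GAA, TTC and GAA with 2 bases between each) in 4 of 13 heat shock genes (30.8%, *Chordc1*, *Hspd1*, *Hspe1* and *Hsph1*; all genes 0.662%).

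Other lists of protein quality control leaned the same way as the ER chaperones, with smaller values. Over all genes 48.4% were above 0 and 3.93% were higher at an unadjusted p under 0.05. Cytosolic heat shock genes were above 0 for 14 of 16, with a median of 0.03 and 3 higher at that p. *Dnajb4*, a cytosolic co-chaperone of Hsp70, was 10.39 to 10.64 in CR mice and 10.03 to 10.38 in control mice, without overlap (0.24 ± 0.05, adjusted p 0.277). *Chordc1* differed by 0.16 ± 0.07 and *Dnajb1* by 0.14 ± 0.06. Proteasome subunits were above 0 for 23 of 29 (median 0.05), and 6 were higher at that p. *Psma2*, of the core particle, was 8.65 to 9.09 in CR mice and 8.39 to 8.77 in control mice (0.26 ± 0.06, adjusted p 0.402), and *Psma6* (0.14 ± 0.05), *Psmb3* (0.10 ± 0.04), *Psmc4* (0.11 ± 0.04), *Psmd1* (0.10 ± 0.04) and *Psmb4* (0.11 ± 0.05) followed. The mean signal of the 29 subunits ran from 0.02 to 0.09 above the control mean in CR mice and from -0.07 to 0.09 in control mice, so the diets overlapped.

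All 23 antioxidant and NRF2 target genes were above 0 (48.4% of all genes), by 0.00 to 0.25, and 3 were higher at an unadjusted p under 0.05 (3.93% of all genes). *Nfe2l2*, which encodes the transcription factor NRF2 itself, had 8.18, 8.39 and 8.74 in CR mice and 8.02, 8.19 and 8.26 in control mice (0.25 ± 0.07, adjusted p 0.461). *Gclm*, a subunit of the enzyme that starts glutathione synthesis, differed by 0.12 ± 0.05, and *Sod2*, the mitochondrial superoxide dismutase, by 0.11 ± 0.04. Of 24 genes of cholesterol synthesis, uptake and export 19 were above 0, with a median of 0.05. The synthesis enzymes *Idi1* (8.65 to 9.19 in CR mice and 8.44 to 8.86 in control mice, 0.24 ± 0.07), *Sqle* (0.13 ± 0.05), *Msmo1* (0.12 ± 0.05) and *Fdps* (0.10 ± 0.04) were its 4 members at an unadjusted p under 0.05. *Hmgcs1*, an early enzyme of the pathway, differed by 0.00 ± 0.06.

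Lists of energy metabolism and nutrient signalling differed in how many members of low p they held. Over all genes 3.93% were higher and 2.65% lower at an unadjusted p under 0.05. None of 39 subunits of oxidative phosphorylation and none of 28 cytosolic ribosomal proteins had an unadjusted p under 0.05, and their medians were 0.01 and -0.0011. Of 16 genes of fatty acid synthesis and desaturation 2 were higher at that p and 0 lower. Of 21 genes of ketone use and fatty acid oxidation 1 was higher and 2 were lower. The higher ones were *Elovl6*, an elongase of fatty acids (0.18 ± 0.05), *Fads2*, a desaturase (0.13 ± 0.06), and *Acadm*, of mitochondrial beta oxidation (0.13 ± 0.05). The lactate and ketone body transporter *Slc16a1* (-0.18 ± 0.07) and *Acot1* (-0.12 ± 0.06) were lower. *Slc2a3*, the neuronal glucose transporter, differed by 0.11 ± 0.05 and *Pkm*, pyruvate kinase, by -0.09 ± 0.04. The insulin receptor gene *Insr* was 9.51 to 9.68 in CR mice and 9.36 to 9.58 in control mice (0.14 ± 0.04, adjusted p 0.566), and *Igfbp4*, which binds IGFs, differed by -0.16 ± 0.07. *Deptor*, an inhibitor of mTOR, differed by 0.14 ± 0.06 and *Sirt1* by 0.12 ± 0.06. Of 26 autophagy and lysosome genes 18 were above 0 (48.4% of all genes), with a median of 0.03. At that p 3 of the 26 were higher, *Atg3* (0.20 ± 0.06), *Atg12* (0.11 ± 0.05) and *Ctsl* (0.09 ± 0.04), and 2 were lower, *Map1lc3a* (-0.12 ± 0.05) and *Atp6v0d1* (-0.09 ± 0.04). Across these genes the adjusted p lay between 0.505 (*Atg3*) and 0.756 (*Sirt1*).

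Lists of neuronal signalling differed in direction. Of 21 glutamate receptor subunits 7 were above 0 (48.4% of all genes), and 4 were lower at an unadjusted p under 0.05 (2.65% of all genes): the NMDA receptor subunits *Grin2c* (-0.16 ± 0.05) and *Grin2a* (-0.15 ± 0.07) and the metabotropic receptors *Grm2* (-0.26 ± 0.11) and *Grm3* (-0.14 ± 0.06). Of 26 genes of synaptic vesicles and postsynaptic scaffolds 7 were above 0, with the scaffold genes *Shank1* (-0.14 ± 0.06) and *Dlgap2* (-0.11 ± 0.04) at that p. Immediate early genes, which neuronal activity induces, had 9 of 28 above 0 and a median of -0.03, and 1 of the 28, *Klf4* (-0.14 ± 0.06), was lower at that p, a share near that of all genes. Above 0 were 13 of 23 genes of neuropeptides and their processing (median 0.03), 10 of 14 receptors for feeding signals (median 0.01) and 6 of 10 GABA-A subunits (median 0.04), each list with 1 member higher and 1 lower at that p. Among receptors for feeding signals the neuropeptide Y receptor *Npy2r* differed by 0.42 ± 0.17 (medians of 6.50 in CR mice and 6.07 in control mice) and the orexin receptor *Hcrtr1* by -0.11 ± 0.05. The neuropeptide gene *Adcyap1* (-0.23 ± 0.10) and the peptide processing enzyme *Cpe* (0.11 ± 0.05) went opposite ways, as did the GABA-A subunits *Gabrb1* (0.18 ± 0.06) and *Gabrd* (-0.15 ± 0.07). *Tsc22d3*, a glucocorticoid-induced gene, was 7.58 to 8.07 in CR mice and 7.40 to 7.92 in control mice (0.25 ± 0.09), the only 1 of 19 glucocorticoid genes at that p.

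Interferon-stimulated genes did not move as 1 group. *Ifit3* was 7.09 to 7.65 in CR mice and 6.84 to 7.31 in control mice (0.37 ± 0.09, adjusted p 0.387), and its close copy *Ifit3b*, whose signal may not be separate from it, differed by 0.28 ± 0.09. *Mx1* (-0.19 ± 0.07) and *Usp18* (-0.13 ± 0.05) lay lower in CR mice. The 21 members had a median of -0.02.

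**Figure D4:**
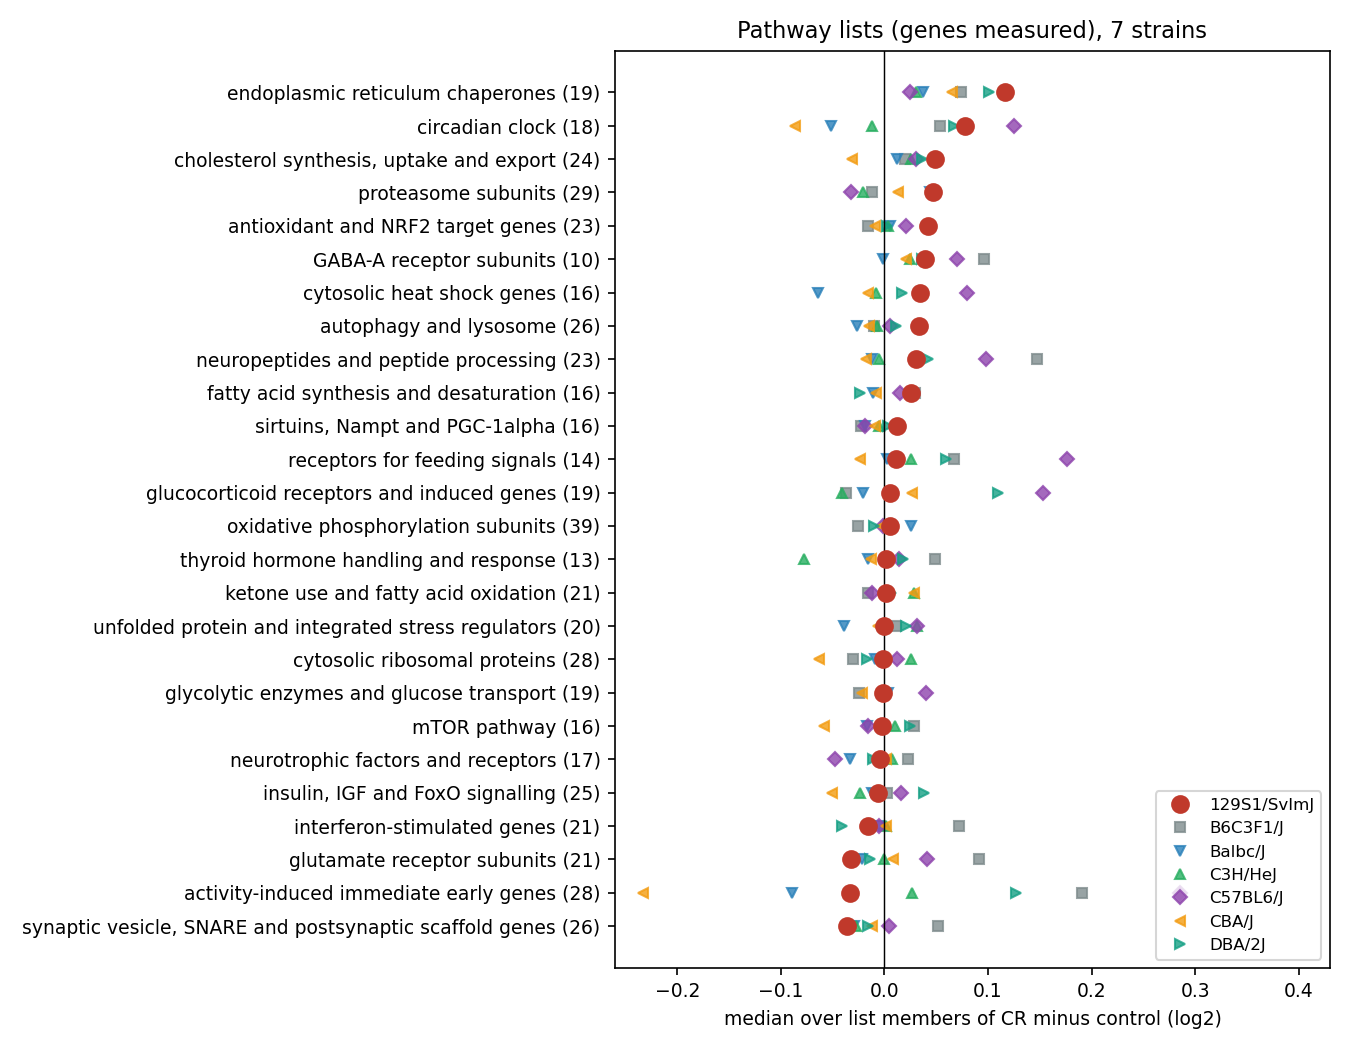
Median CR minus control difference (log2, horizontal axis) over the measured members of 26 pathway lists, 1 row per list with the number of genes measured in brackets and 1 symbol per strain. In 129S1/SvImJ (large circles) ER chaperones had the highest median, 0.12, and synaptic vesicle, SNARE and scaffold genes the lowest, -0.04. In the list of glycolytic enzymes and glucose transport, Gpi1 was matched by a synonym to Pigq, a different gene.

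Markers of cell types and of neighbouring regions also differed, with overlap in every case. All 11 excitatory neuron markers were below 0 (median -0.11, 0 at an unadjusted p under 0.05), and their mean signal ran from 9.30 to 9.66 in CR mice and from 9.30 to 9.66 in control mice, with medians of 9.49 and 9.62. Of 12 thalamic markers 11 were above 0 (median 0.15, 1 at that p, *Rgs16*, 0.19 ± 0.06), and their mean ran from 7.85 to 8.50 in CR mice and 7.88 to 8.37 in control mice. All 10 choroid plexus markers were above 0 (median 0.20, 0 at that p), with means of 6.81 to 8.33 in CR mice and 6.87 to 7.85 in control mice. Striatal markers were above 0 for 9 of 10 (median 0.12, 0 at that p), with means of 8.50 to 10.59 in CR mice and 8.41 to 10.68 in control mice. With each of these marker means in turn as a covariate, the difference of *Hspa5* ran from 0.28 to 0.32 and that of *Dbp* from 0.29 to 0.30, the median of the ER list was 0.13 to 0.14, and that of the clock list was 0.09 to 0.13. Other named genes moved more. With the thalamic and the excitatory mean in turn, *Ciart* was at 0.40 and 0.41, *Arntl* at -0.14 and -0.14 and *Nr1d1* at -0.14 and -0.14. With 1 of these 2 covariates or both, 16 named genes moved by over 1.5 times, 15 of them toward 0: *Grm2*, *Grm3*, *Grin2a*, *Shank1*, *Klf4*, *Npy2r*, *Igfbp4*, *Fads2*, *Acot1*, *Slc16a1*, *Map1lc3a*, *Cebpb*, *Gja1*, *Aqp4* and *Arntl*. With the thalamic mean *Grm2* was at -0.10, *Grin2a* at -0.06, *Klf4* at -0.06, *Igfbp4* at -0.06, *Fads2* at 0.05 and *Npy2r* at 0.19, and *Deptor* was further from 0, at 0.22. With the excitatory mean *Shank1* was at -0.06.

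Vascular and glial genes had a few members of low p. Of 11 endothelial markers 6 were above 0 (48.4% of all genes), with a median of 0.0029. The tight junction gene *Cldn5* of endothelium was 8.73 to 9.13 in CR mice and 8.94 to 9.44 in control mice (-0.25 ± 0.08, adjusted p 0.566), while the endothelial receptor *Tek* differed by 0.14 ± 0.06. Of 12 markers of mural cells and vascular fibroblasts 11 were below 0, among them *Mcam* (-0.20 ± 0.06) and *Pdgfrb* (-0.13 ± 0.05). Of 14 astrocyte markers 10 were above 0 and 4 below, with a median of 0.04. The 2 higher at an unadjusted p under 0.05 (3.93% of all genes) were *Gja1*, the main gap junction protein of these cells (0.16 ± 0.05), and *Aqp4*, their water channel (0.15 ± 0.06). *Lhx6*, a transcription factor of interneurons, differed by 0.11 ± 0.04, and the 12 interneuron markers had a median of 0.0012. The part of cell makeup in the differences of this strain was not tested beyond the covariates given.

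**Figure D5:**
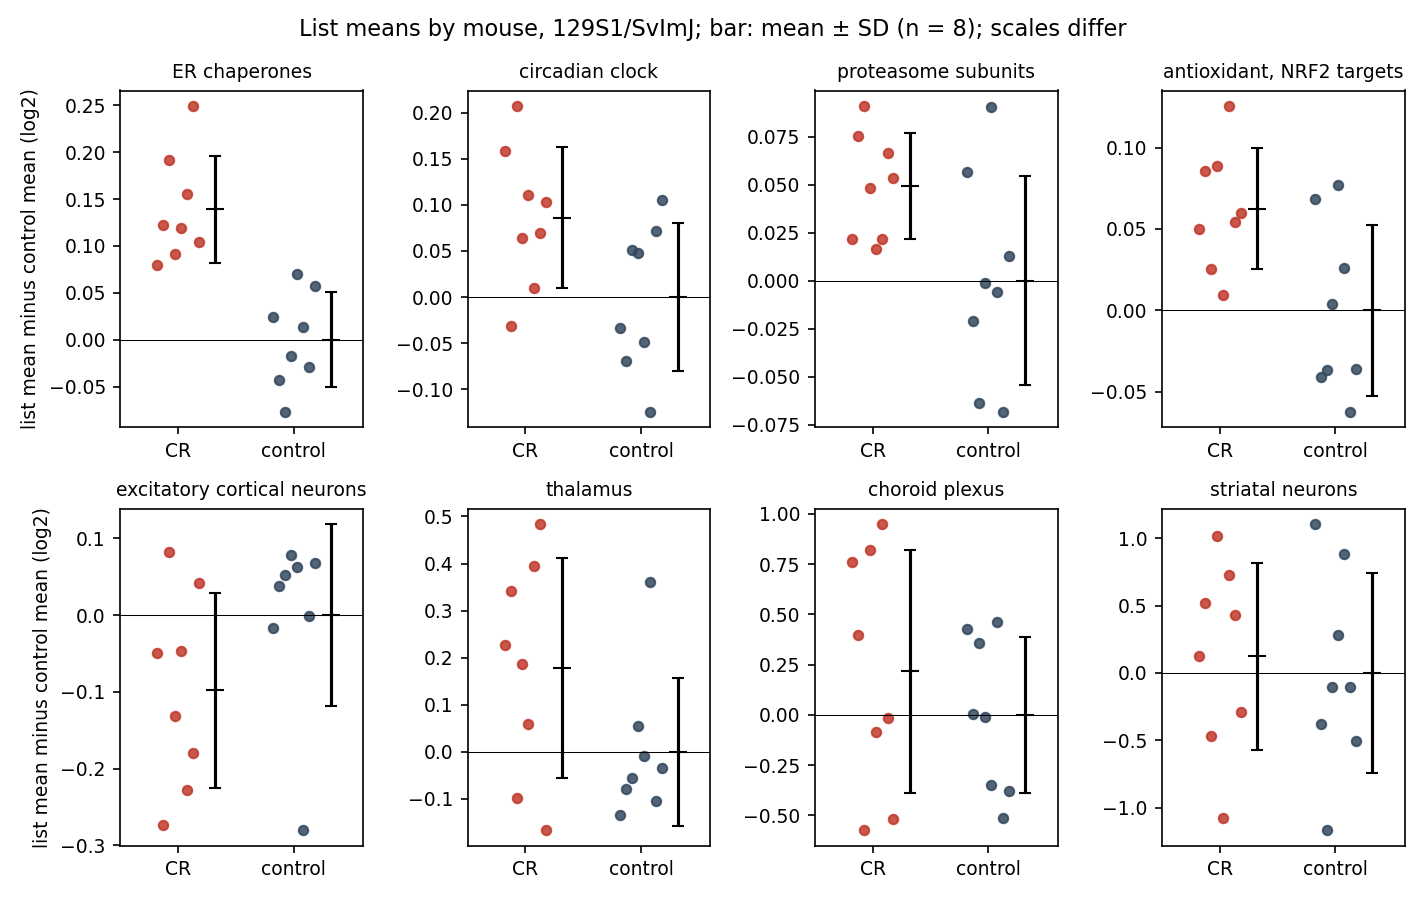
Mean log2 signal over the genes of a list, less the mean of the 8 control mice (vertical axis; scales differ), 1 point per 129S1/SvImJ mouse, CR at left and control at right, with bars for the mean ± SD. For ER chaperones the 8 CR mice (0.08 to 0.25) lie above the 8 control mice (-0.08 to 0.07); for the other 7 lists the diets overlap.

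The other 6 strains, whose 96 arrays share no mouse with this one, gave a second reading of the same genes. Of the 218 genes that were higher in 129S1/SvImJ at an unadjusted p under 0.01, 191 (87.6%) had a positive mean difference in the other 6 strains, against 51.9% of all genes. In that mean, 26 of the 218 (11.9%) were called higher at an adjusted p under 0.05, against 103 of all genes (0.517%), and 0 were called lower. Of the 79 lower genes 51 (64.6%) were negative in the other strains, against 48.1% of all genes, and 5 (6.33%) were called lower there, against 0.717% of all genes: *Nr1d1*, *Mcam*, *Id2*, *Hecw2* and *Snrpd2*. The 26 included *Hspa5* (0.16 ± 0.03 in the other 6, adjusted p 0.00371), *Pdia6* (0.12 ± 0.03, 0.0238), *Per2* (0.19 ± 0.03, 0.000228), *Per3* (0.11 ± 0.02, 0.00191), *Dnajb4* (0.11 ± 0.03, 0.0403), *Ifit3* (0.21 ± 0.04, 0.00186) and *Gja1* (0.08 ± 0.02, 0.00327). These genes were therefore called in the mean CR difference of the other 6 strains. *Nr1d1* was lower there by -0.28 ± 0.03 (adjusted p 2.58e-10), and *Id2* by -0.11 ± 0.03 (adjusted p 0.0492). That mean included a control array each of C57BL6/J and B6C3F1/J that held cerebellar RNA, and it was not fitted without them.

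Over all 19938 genes the differences in 129S1/SvImJ had a Pearson correlation of 0.223 with the mean difference of the other 6 strains (Spearman 0.199), a value across genes, which are not independent replicates. By strain it was highest with DBA/2J (0.309), then Balbc/J (0.183), C3H/HeJ (0.152), CBA/J (0.0832), C57BL6/J (0.0145) and B6C3F1/J (-0.03). In the last 2 strains cerebellar markers had medians of -0.51 (C57BL6/J) and -0.47 (B6C3F1/J). Their median was 0.04 in 129S1/SvImJ and between -0.10 (DBA/2J) and 0.12 (CBA/J) in the rest. The part of tissue makeup in these correlations was not tested. They were not computed without the control arrays of C57BL6/J and B6C3F1/J that held cerebellar RNA. The number of genes at an unadjusted p under 0.01 was 297 in 129S1/SvImJ and 297 in DBA/2J, 287 in Balbc/J, 322 in C57BL6/J, 106 in C3H/HeJ, 642 in CBA/J and 94 in B6C3F1/J. CBA/J was the only strain with called genes in a fit of its own 16 arrays, 15 higher and 16 lower.

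For ER chaperones the median was positive in every strain: 0.12 in 129S1/SvImJ, 0.10 in DBA/2J, 0.07 in B6C3F1/J and CBA/J, 0.04 in Balbc/J, 0.03 in C3H/HeJ and 0.02 in C57BL6/J. *Hspa5* was above 0 in all 7, at 0.30 in 129S1/SvImJ and between 0.13 (C3H/HeJ) and 0.19 (DBA/2J) in the other 6. The difference between 129S1/SvImJ and the mean of the other 6 was 0.14 ± 0.09 for *Hspa5*, and 0.17 ± 0.07 for *Creld2* and 0.16 ± 0.08 for *Pdia4*, the 2 members at an unadjusted p under 0.05 for the difference (4.16% of all genes, either direction), and none of the 19 was called. The difference was above 0 for 18 of the 19, with a median of 0.06, against 9823 of 19938 genes and a median of -0.0011.

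Several clock genes were higher in 129S1/SvImJ and in C57BL6/J, the other strain whose food was lowered partway, and not in all of the rest. *Dbp* differed by 0.30 in 129S1/SvImJ, 0.23 in C57BL6/J and between -0.17 (CBA/J) and 0.12 (B6C3F1/J) in the other 5 strains. *Ciart* differed by 0.30 in 129S1/SvImJ, 0.35 in C57BL6/J and between -0.44 (CBA/J) and 0.08 (DBA/2J) in the other 5. *Bhlhe41* differed by 0.28 in 129S1/SvImJ, 0.17 in C57BL6/J and between -0.18 (Balbc/J) and 0.07 (B6C3F1/J), *Tef* by 0.22, 0.12 and between -0.17 (CBA/J) and 0.06 (DBA/2J), and *Arntl* by -0.21, -0.21 and between -0.10 (B6C3F1/J) and 0.07 (Balbc/J). *Nr1d1* was below 0 in all 7 strains. The pairing of these 2 strains was seen after the values were known, and strain and feeding cannot be told apart. The C57BL6/J values include control replicate 6, which held cerebellar RNA, and were not computed without it.

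Tested directly, no gene was called for a difference in CR response between 129S1/SvImJ and the mean of the other 6 strains. There were 0 calls (0%) in limma's fit of 112 arrays, with 830 genes at an unadjusted p under 0.05 (4.16%) and 170 under 0.01 (0.853%). The 4 genes of smallest p were *Cldn5* (-0.33 ± 0.08, adjusted p 0.283), *Pnrc2* (0.30 ± 0.07, adjusted p 0.283), *Tef* (0.22 ± 0.05, adjusted p 0.370) and *Eola1* (0.23 ± 0.06, adjusted p 0.941). For *Cldn5* the difference was -0.25 in 129S1/SvImJ and 0.08 in the mean of the others, and for *Pnrc2* 0.32 in 129S1/SvImJ and 0.02.

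Against C57BL6/J alone there were also 0 calls (0%), with 1608 genes at an unadjusted p under 0.05 (8.07%) and 360 under 0.01 (1.81%). The 4 of smallest p were *Wdr5b* (0.35 ± 0.08), *Defa39* (-0.49 ± 0.12), *Msh3* (0.32 ± 0.08) and *Gm13213* (-0.33 ± 0.08), each with an adjusted p of 0.510. *Wdr5b* differed by 0.12 in 129S1/SvImJ and by -0.23 in C57BL6/J. Immediate early genes had a median of -0.03 in 129S1/SvImJ and 0.29 in C57BL6/J, while striatal markers had 0.12 and 0.43 and cerebellar markers 0.04 and -0.51. A fit of this contrast without C57BL6/J control replicate 6, an array with cerebellar RNA, also gave 0 calls. The part of tissue makeup in this contrast was not tested beyond that fit.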

How the data were processed

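Cortical RNA of male mice was measured on 1-colour Affymetrix arrays (Mouse Gene 1.0 ST). The deposited log2 values were made by the authors with Affymetrix Expression Console (gene-level RMA-Sketch: background correction, quantile normalization and summary of probe sets); the software version was not stated. RMA gives arrays a common distribution, so a shift of all genes together would not be seen, and small changes of dim probe sets are compressed. The number of arrays limits the precision.

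Of 35556 probe sets 21789 had exactly 1 platform symbol (1621 had several, 12146 none), and the one of highest mean over 112 arrays was kept per gene, giving 19938 genes with no filter on signal. The table had 0 unused sample columns and 0 identical arrays. CR minus control was fitted on the 16 arrays by moderated linear models (limma 3.58.1 under R 4.3.3, two-sided, with residual df of 14 and prior df of 4.82), with Benjamini-Hochberg adjustment over all genes and a call at 0.05. An earlier analysis fitted all 112 arrays, which is an alternative here. Differences between strains came from limma on 112 arrays with 14 group means. Figures were drawn with matplotlib 3.10.9. The functions were tested on simulated data.

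The 26 pathway and 14 marker lists and the members were chosen with earlier results of these data known. They are described by counts and medians beside those of all genes, dim ones included. Of the 9969 genes above the median gene, limma gave 218 higher and 53 lower at an unadjusted p under 0.01. Of all 19938 genes it gave 218 and 79. Named genes were the 8 of smallest p in each direction, up to 6 of smallest p per list, and the 4 of smallest p for each contrast between strains. Genes named as other list members, and *Nr1d1*, *Arntl* and *Pdia6*, fall outside this rule and were chosen after their values were seen. Alternatives were other fits, normalizations, filters, covariates and probe set choices, and leaving out each array; those with thalamic and excitatory marker means were added after seeing the data. Where array medians are given they are over the 19938 genes.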

Additional observations from a re-analysis of the deposited data

Results flagged for a closer look

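For each named gene and each list mean shown, the 8 arrays of a diet were checked for 1 array far from the rest. Of 198 groups of 8 arrays, 15 held one, and chance alone gives about 1 in 20. In control mice these were replicate 5 for *Rwdd2a* (8.77, 0.39 above the median of the others) and *Manf* (7.96), replicate 7 for *Rp1* (4.90), replicate 8 for *Dnajc3* (8.67), replicate 1 for *Gabrd* (9.15) and replicate 6 for *Grin2a* (10.47) and *Arntl* (7.87). In CR mice they were replicate 7 for *Slc16a1* (8.59), replicate 2 for *Slc2a3* (10.47) and *Adcyap1* (7.37), replicate 3 for *Cpe* (12.08) and *Arntl* (8.18), and replicate 8 for *Gja1* (10.17). Control replicate 6 also had the lowest mean of excitatory neuron markers (9.30, 0.33 below the median of the other 7) and the highest mean of thalamic markers (8.37, 0.42 above).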

How the results depend on the processing

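The 34 alternatives to the fit of this strain gave 0 called genes, except 1 each (*Pnrc2*, adjusted p 0.0299) in the 112-array fit and (*Rwdd2a*, adjusted p 0.0256) without control replicate 5. Leaving out 1 array gave 0 to 1 calls, 157 to 271 higher genes and 44 to 134 lower genes at an unadjusted p under 0.01, with the lowest lower count without control replicate 3 and 121 and 134 without control replicate 1 and CR replicate 5. Against a change of 1.1-fold 8 genes were higher and 0 lower at that p. With the thalamic marker mean as covariate 137 were higher, and quantile normalization and array weights gave 127 and 143 lower genes. No named gene changed sign, though 16 moved by over 1.5 times with the thalamic or excitatory marker mean as covariate, 15 of them toward 0. List medians were followed only for ER chaperones, clock, proteasome, antioxidant, cholesterol and heat shock genes and for excitatory, thalamic and choroid plexus markers. Among these lists only the markers used for adjustment changed sign. Excitatory markers were at 0.03 with their own mean and 0.01 with the thalamic mean as covariate, and thalamic markers at -0.03 with their own. Both covariates were chosen after seeing the data. The labels do not say that replicate numbers pair the mice. Deviations of CR and control arrays of the same number correlated from -0.359 to 0.364, over 0.1 in 5 of 8. Of the 8 CR arrays, 3 correlated best with their own number, so pairing was not settled. With the replicate block 0 genes were called, with 186 higher and 90 lower at p under 0.01. The contrasts with the other 6 strains and with C57BL6/J had 0 calls under every alternative. The quantile choice moved the split of genes at p under 0.01 to 218 higher and 127 lower. The median SE of 0.0619 sets what 8 against 8 arrays can show.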
